A study of Mus musculus with 9 samples.

Results

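The glucocorticoid receptor gene Nr3c1 and 9 genes that the receptor is known to act on (Fkbp5, Zbtb16, Tsc22d3, Klf9, Sgk1, Hif3a, Errfi1, Cebpd and Ddit4) were followed through the cells of the mouse heart. They were chosen by name, and all 10 were found among the 23747 genes of the expression tables. Single-nucleus RNA sequencing (sNuc-seq), which tags every transcript of a nucleus with a unique molecular identifier (UMI), was applied to heart tissue from below the ligation of 9 C57BL/6 mice. The mice were supplied at 8 weeks of age and were older at surgery, after acclimatization and gavage. No transgene was used. All mice were gavaged for at least 7 days before surgery. The 3 sham mice received the vehicle, 0.5% CMC-Na, and then an operation without ligation. The 3 I/R mice received the same vehicle, then 30 min of ischemia by ligation of the left anterior descending coronary artery (LAD) and 24 h of reperfusion. The 3 SBP mice received Shexiang Baoxin Pill (SBP, MUSKARDIA in the labels), a traditional Chinese medicine, before the same ischemia and reperfusion. Anesthesia and thoracotomy were thus shared by all 3 groups, and no unoperated mouse was included. The time of day of the operations and of tissue collection is not given in the sources used here. The model is a single operation scored at 24 h, each library is 1 mouse, and frozen tissue gave nuclear RNA only.

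Glucocorticoids are steroid hormones of the adrenal cortex, released in a daily rhythm and under stress such as surgery. They bind the receptor encoded by Nr3c1, which is held in the cytoplasm by heat shock proteins and immunophilins. The hormone-bound receptor enters the nucleus and raises or lowers transcription, mostly from palindromic response elements built of 2 copies of AGAACA facing each other across a spacer of 3 bases. Among its well known targets are the immunophilin Fkbp5, which lowers the affinity of the receptor for its hormone, and the anti-inflammatory leucine zipper protein Tsc22d3 (GILZ). In the heart the receptor is present in cardiomyocytes, endothelial cells, fibroblasts and macrophages.

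Promoter sequence was taken from RefSeq windows that run from 250 bases before to 50 bases after a transcript start (build GRCm38.p6), which held 15 windows for 7 of the 10 genes. Nr3c1, Zbtb16 and Cebpd had no window in that table. The following windows are shown because each holds a motif of the receptor or of the clock. The capitals in Sgk1 (chr10:21993640-21993939, plus strand) mark a match to the palindrome GNACANNNTGTNC, those in Fkbp5 (chr17:28486100-28486399, minus strand) the E-box CACGTG, the sequence bound by the clock factors, and those in Tsc22d3 (chrX:140600473-140600772, minus strand) the half-site AGAACA read on the other strand.
Sgk1: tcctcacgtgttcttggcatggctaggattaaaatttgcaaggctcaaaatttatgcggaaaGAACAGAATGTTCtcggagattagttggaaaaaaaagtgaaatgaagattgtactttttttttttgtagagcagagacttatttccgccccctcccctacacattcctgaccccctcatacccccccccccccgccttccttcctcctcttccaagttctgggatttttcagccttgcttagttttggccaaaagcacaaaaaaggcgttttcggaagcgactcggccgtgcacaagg
Fkbp5: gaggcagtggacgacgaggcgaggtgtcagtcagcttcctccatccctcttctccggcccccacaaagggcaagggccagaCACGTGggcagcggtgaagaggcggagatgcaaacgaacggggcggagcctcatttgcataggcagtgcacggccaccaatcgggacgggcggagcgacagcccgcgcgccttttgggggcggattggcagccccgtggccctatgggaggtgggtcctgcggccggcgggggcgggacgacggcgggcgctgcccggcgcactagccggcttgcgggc
Tsc22d3: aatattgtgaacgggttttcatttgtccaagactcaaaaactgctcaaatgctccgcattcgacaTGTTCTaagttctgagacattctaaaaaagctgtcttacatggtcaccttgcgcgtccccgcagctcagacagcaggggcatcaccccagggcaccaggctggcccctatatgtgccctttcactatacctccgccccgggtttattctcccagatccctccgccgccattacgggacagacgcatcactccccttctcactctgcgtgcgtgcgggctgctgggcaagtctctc
On either strand, the palindrome was found in 156 of 32851 windows (0.475%) and in 1 of the 15 windows of the genes followed here, that of Sgk1, where it began 188 bases before the start. Half-sites in that window overlapped it, and another half-site overlapped an E-box farther upstream. The half-site was found in 19.0% of all windows and in 4 of the 15, all of Sgk1 or Tsc22d3. The E-box was found in 7.15% of all windows and in 2 of the 15, of Fkbp5 and Sgk1. These matches describe the letters of the windows, and no binding was measured.

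In the GENCODE M21 annotation of GRCm38, Fkbp5 lies on chromosome 17 (28399094 to 28517527, minus strand), Zbtb16 on 9 (48654297 to 48836222, minus), Tsc22d3 on X (140539528 to 140600659, minus) and Klf9 on 19 (23141226 to 23168134, plus). Sgk1 lies on 10 (21882184 to 21999903, plus), Hif3a on 7 (17031507 to 17062427, minus) and Ddit4 on 10 (59949669 to 59951834, minus). Errfi1 lies on 4 (150853919 to 150868892, plus) and Cebpd on 16 (15887286 to 15891031, plus). Each of these last genes overlaps a gene of the other strand that the tables also list, 1700045H11Rik and Spidr, so their levels depend on counting by strand, which is not given in the sources used here. The same holds for Fkbp5 and Gm22146.

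The tables held 49171 nuclei, with 4576 to 6418 nuclei and 10329520 to 18205985 UMIs per mouse and a median of 1540 to 2031 UMIs per nucleus. Nuclei were clustered and named by marker genes, so that the names below stand for nuclei that resemble the type. Typed instead by marker scores, 70.5% of nuclei kept their type. Cardiomyocytes gave 939 to 1487 nuclei per mouse, endothelial cells 1230 to 1986, fibroblasts 1410 to 1880 and myeloid cells 365 to 2179. UMIs were summed over the nuclei of a type in each mouse and are given in CPM, the UMIs of a gene scaled to a common total per sum, with TMM factors that correct for differences in RNA composition. Fewer cells of a state within a type and less RNA per cell cannot be told apart in such sums. A gene was called when its limma p, adjusted by Benjamini-Hochberg over all genes of the type, did not exceed 0.05 and its absolute log2 fold change exceeded 0.25. All 10 genes passed the filter on low values in these 4 types. Sham replicate 2 stood apart for these genes. It was the lowest sham mouse for 8 of the 10 genes in cardiomyocytes and myeloid cells and for 9 in endothelial cells and fibroblasts, against 29.8% to 34.6% of all genes tested. The calls and correlations of the 10 genes that it touched are also given without it, alone or together with a second mouse.

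The receptor gene was present in every cell type and varied less than its targets. Nr3c1 stood at 147 ± 31.4 CPM in cardiomyocytes (SD, n = 9 mice), 261 ± 57.9 in fibroblasts, 278 ± 39.9 in endothelial cells and 336 ± 70.1 in myeloid cells. Over the 9 mice its highest level was 1.59 (endothelial cells) to 1.97 (fibroblasts) times its lowest. Myeloid cells were above endothelial cells by 0.26 log2 units (SD 0.26, 7 of 9 mice, two-sided exact sign-flip permutation p = 0.0234). Endothelial cells and fibroblasts did not differ beyond the spread over mice (0.11, p = 0.105, same exact test), and fibroblasts were above cardiomyocytes in all 9 mice (0.82, SD 0.20, exact permutation p = 0.00391).

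The targets were spread over the cell types in different ways, and the orders given here are among these 4 types alone. Fibroblasts were the highest type for Errfi1, an inhibitor of EGF receptor signaling, with 334 ± 152 CPM against 52.5 ± 22.2 in endothelial cells and 11.7 ± 5.37 in cardiomyocytes (SD, n = 9). They were also the highest for Cebpd, a transcription factor of the acute phase response, with 55.6 to 401 CPM against 2.11 to 21 in cardiomyocytes. Klf9, a Krüppel-like transcription factor, was highest in fibroblasts (385 ± 147 CPM) and lowest in myeloid cells (144 ± 70.1 CPM). Endothelial cells were the highest type for Sgk1, a kinase that regulates ion transport, with 168 ± 76.2 CPM against 7.31 ± 4.10 in cardiomyocytes. They were also the highest for Ddit4, an inhibitor of mTORC1 (58.6 ± 33.1 CPM), and for Hif3a, a hypoxia-inducible factor subunit (40.5 ± 28.3 CPM). Tsc22d3 was highest in myeloid cells (259 ± 88.6 CPM) and lowest in cardiomyocytes (118 ± 27.9 CPM).

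Fkbp5 and Zbtb16, a zinc finger repressor also called PLZF, had no single highest type. Fkbp5 was at 906 ± 447 CPM in fibroblasts and 971 ± 678 in myeloid cells (log2 difference 0.19, fibroblasts higher in 4 of 9 mice, exact permutation p = 0.5), with 571 ± 452 in endothelial cells and 135 ± 114 in cardiomyocytes. Zbtb16 was at 1765 ± 1052 CPM in fibroblasts and 1523 ± 814 in cardiomyocytes (log2 difference 0.17, fibroblasts higher in 6 of 9 mice, exact permutation p = 0.176), with 964 ± 737 in endothelial cells and 523 ± 544 in myeloid cells. For the other 8 genes the highest type was above the next by the exact sign-flip test, with p from 0.00391, the smallest that 9 mice allow, to 0.0234. Over all 9985 genes tested in the 4 types, 58.7% met the same limit. Further down the order, neighbours that did not differ beyond their spread were myeloid cells and fibroblasts for Sgk1 (exact permutation p = 0.445), endothelial and myeloid cells for Cebpd (p = 0.0781), fibroblasts, myeloid cells and cardiomyocytes for Hif3a (p = 0.633 and 0.328) and for Ddit4 (p = 0.0938 and 0.285), and cardiomyocytes and myeloid cells for Klf9 (p = 0.0547).

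**Figure D1:**
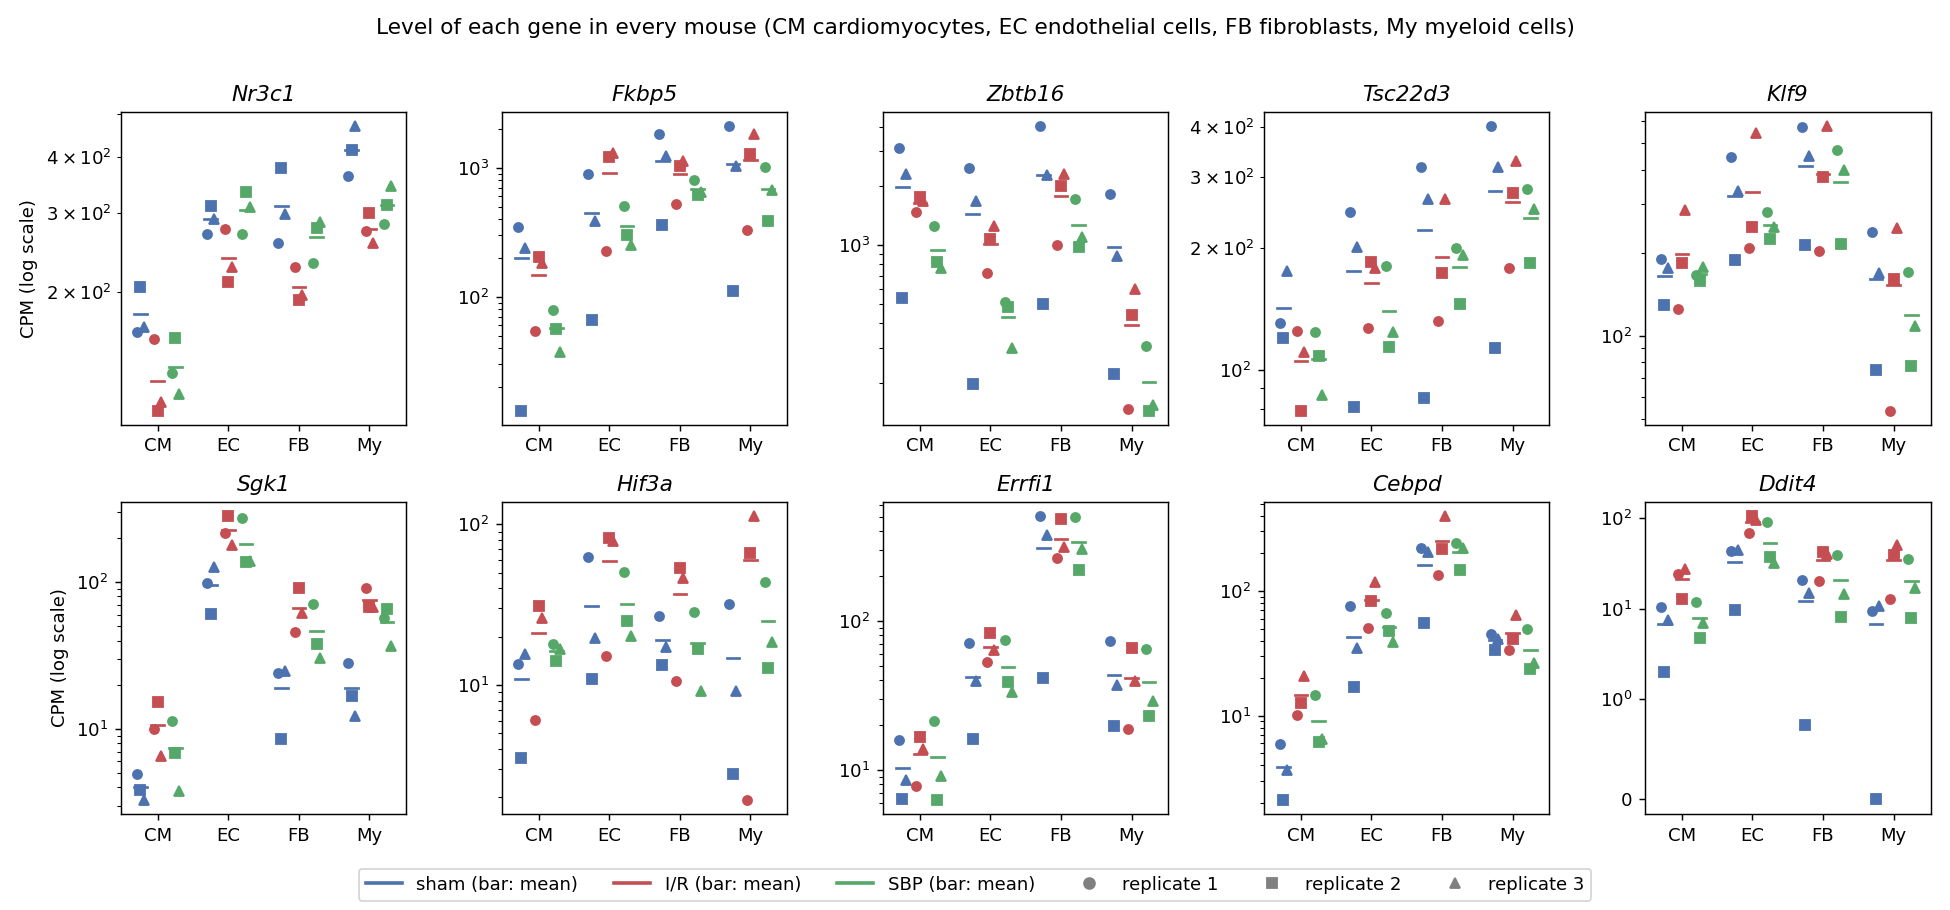
Level of each of the 10 genes in CPM (log axis, linear near 0 for Ddit4) in every mouse, by cell type and group, with horizontal bars at group means. Fkbp5 in cardiomyocytes ran from 13.1 to 350.2 CPM within the sham group, while Nr3c1 ran from 163 to 206 CPM.

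Ischemia-reperfusion was compared with sham to ask which cells changed the receptor gene or its targets after the injury. Of the 10 genes, Nr3c1 was lower and Sgk1 higher in I/R in fibroblasts and myeloid cells, and none was called in cardiomyocytes or endothelial cells. Over all genes tested, limma called 17.5% in myeloid cells, 11.7% in fibroblasts, 3.24% in endothelial cells and 0.806% in cardiomyocytes, so that the 2 of 10 called in fibroblasts and in myeloid cells were near these shares. The shares of all genes were 11.9%, 9.79%, 0.68% and 0.178% with sham replicate 2 left out, and 1 of the 10 genes, Sgk1, was then called in fibroblasts and in myeloid cells.

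Nr3c1 in fibroblasts was at 258, 378 and 298 CPM in the sham mice and at 227, 192 and 197 CPM in the I/R mice. In myeloid cells it was at 363, 415 and 469 CPM in sham and 274, 301 and 257 CPM in I/R. Every I/R mouse lay below every sham mouse in both types. The log2 fold change was −0.58 in fibroblasts (SE 0.16, limma adjusted p = 0.0383) and −0.58 in myeloid cells (SE 0.15, limma adjusted p = 0.0199). Without sham replicate 2 the log2 fold change was −0.43 in fibroblasts (limma adjusted p = 0.1) and −0.58 in myeloid cells (limma adjusted p = 0.0522), and neither passed. The fibroblast call was also lost without sham replicate 3, I/R replicates 2 and 3 and SBP replicates 2 and 3 (limma adjusted p from 0.0582 to 0.127) and with scaling to total UMIs (limma adjusted p = 0.0871), and the myeloid call without sham replicate 3 and I/R replicate 3 (limma adjusted p = 0.0768 and 0.0616).

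In cardiomyocytes Nr3c1 was at 163, 206 and 168 CPM in sham and at 157, 109 and 114 CPM in I/R, again without overlap. The log2 fold change of −0.50 (SE 0.19) did not pass (limma adjusted p = 0.263). In endothelial cells it was at 269, 312 and 291 CPM in sham and 277, 211 and 228 CPM in I/R, and these overlapped, a log2 fold change of −0.29 (SE 0.14, limma adjusted p = 0.302).

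Sgk1 was higher in every I/R mouse than in any sham mouse in all 4 types. In myeloid cells it was at 28.2, 16.8 and 12.3 CPM in sham and 91.6, 67.4 and 67.6 CPM in I/R, a log2 fold change of 1.99 (SE 0.30, limma adjusted p = 0.00108). In fibroblasts it was at 24.1, 8.47 and 24.8 CPM in sham and 46, 91 and 61.5 CPM in I/R, a log2 fold change of 1.82 (SE 0.43, limma adjusted p = 0.0243). Without sham replicate 2 these log2 fold changes were 1.94 and 1.35 (limma adjusted p = 0.00703 and 0.0444). The fibroblast call was lost without I/R replicate 2 (limma adjusted p = 0.0946) and without I/R replicate 3 (limma adjusted p = 0.0648). With the replicate number as a block neither fibroblast call passed (limma adjusted p = 0.0606 for Sgk1 and 0.0547 for Nr3c1).

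In endothelial cells, where Sgk1 was highest, its levels were 99.1, 60.7 and 128 CPM in sham and 215, 284 and 178 CPM in I/R, a log2 fold change of 1.26 (SE 0.32, limma adjusted p = 0.0703). In cardiomyocytes they were 4.95, 3.81 and 3.27 CPM in sham and 9.9, 15.3 and 6.5 CPM in I/R (1.15, SE 0.36, limma adjusted p = 0.196). The groups were separate in these types too, but the change did not pass over all genes.

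Ddit4 and Cebpd gave positive fold changes that did not pass. Ddit4 in cardiomyocytes was at 10.5, 1.97 and 7.54 CPM in sham and 24.3, 12.8 and 27.1 CPM in I/R, a log2 fold change of 1.69 (SE 0.49, limma adjusted p = 0.168). In endothelial cells it was at 43.4, 9.56 and 44.1 CPM in sham and 68.7, 107 and 95.2 CPM in I/R (1.70, SE 0.55, limma adjusted p = 0.134). In myeloid cells it was at 9.41, 0 and 10.8 CPM in sham, where 0 UMIs in sham replicate 2 allow up to 2.81 CPM by a limit of 3 UMIs (counting error only), and at 12.8, 39.4 and 51 CPM in I/R (limma adjusted p = 0.0993). These 3 pairs of groups did not overlap, while those of fibroblasts did (20.5, 0.736 and 15 CPM in sham, 20.1, 42.4 and 40.0 CPM in I/R). Cebpd in cardiomyocytes was at 5.9, 2.11 and 3.67 CPM in sham and 10.1, 12.8 and 21 CPM in I/R, a log2 fold change of 1.69 (SE 0.38, limma adjusted p = 0.0831), without overlap. In myeloid cells it was at 45.2, 33.7 and 41.5 CPM in sham and 33.6, 41.1 and 64.5 CPM in I/R (0.16, SE 0.30).

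The genes taken as the classical readout of the receptor did not separate I/R from sham. Fkbp5 in cardiomyocytes was at 350.2, 13.1 and 240.3 CPM in sham and 54.5, 204 and 182 CPM in I/R, a log2 fold change of 0.26 (SE 1.02, limma adjusted p = 0.935). In endothelial cells it was at 893, 66.6 and 388 CPM in sham and 227, 1204 and 1306 CPM in I/R (1.31, SE 1.01, limma adjusted p = 0.553). The groups overlapped in both types, and the SE was near 1 log2 unit because mice of 1 group differed so much. In fibroblasts Fkbp5 was at 1816, 358 and 1224 CPM in sham and 528, 1037 and 1123 CPM in I/R, and in myeloid cells at 2091, 111 and 1031 CPM and at 327, 1278 and 1836 CPM. Zbtb16 in fibroblasts was at 4009.8, 502 and 2266 CPM in sham and 1007, 1995 and 2301 CPM in I/R (log2 fold change 0.01, SE 0.68). In myeloid cells it was at 1815, 221 and 883 CPM in sham and 146, 441 and 596 CPM in I/R (−1.07, SE 0.79, limma adjusted p = 0.399). Tsc22d3, Klf9, Hif3a and Errfi1 overlapped between sham and I/R in every type, with log2 fold changes from −0.44 (Tsc22d3, cardiomyocytes) to 1.37 (Hif3a, myeloid cells, SE 1.35). The size of these fold changes, and for several their sign, depended on sham replicate 2. With that mouse left out, the log2 fold change of Fkbp5 was −1.19 in cardiomyocytes, −0.81 in fibroblasts, −0.68 in myeloid cells and 0.27 in endothelial cells. That of Zbtb16 was then −0.71 in cardiomyocytes, −0.86 in fibroblasts, −1.90 in myeloid cells and −1.03 in endothelial cells, and that of Errfi1 in fibroblasts went from 0.77 to −0.35. None of these passed the test (the lowest adjusted p was that of Zbtb16 in myeloid cells, 0.0952 by limma).

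In all, the groups did not overlap for 4, 2, 2 and 3 of the 10 genes in cardiomyocytes, endothelial cells, fibroblasts and myeloid cells, against 16.4%, 20.9%, 27.2% and 34.2% of all genes. The share was above that of all genes in cardiomyocytes and near it or below in the other types. The median log2 fold change of the 10 genes was 0.29, 0.89, 0.34 and 0.11 in these types, beside −0.01, −0.02, −0.02 and 0.01 for all genes tested. Leaving out sham replicate 2 moved the medians of the 10 genes to 0.05, 0.28, −0.39 and −0.50, with the sign changed in fibroblasts and myeloid cells.

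The I/R effect was also compared between cell types within each mouse, for each of 6 pairs of types. Limma called 0.0352% of all genes between cardiomyocytes and endothelial cells, 2.21% between cardiomyocytes and fibroblasts, 4.82% between cardiomyocytes and myeloid cells, 0.511% between endothelial cells and fibroblasts, 3.36% between endothelial and myeloid cells, and 6.94% between fibroblasts and myeloid cells. Of the 60 tests of the 10 genes, 2 passed. The effect on Cebpd was higher in cardiomyocytes than in myeloid cells by 1.52 log2 units (SE 0.24, limma adjusted p = 0.0115). The effect on Zbtb16 was higher in fibroblasts than in myeloid cells by 1.07 (SE 0.27, limma adjusted p = 0.0437), and this was kept without I/R replicate 3 and lost without each of the other mice. Both differences were lost when nuclei were typed by marker scores. For Nr3c1 and Sgk1 no pair of types differed by this test, so their calls in fibroblasts and myeloid cells are not shown to be particular to those types.

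**Figure D2:**
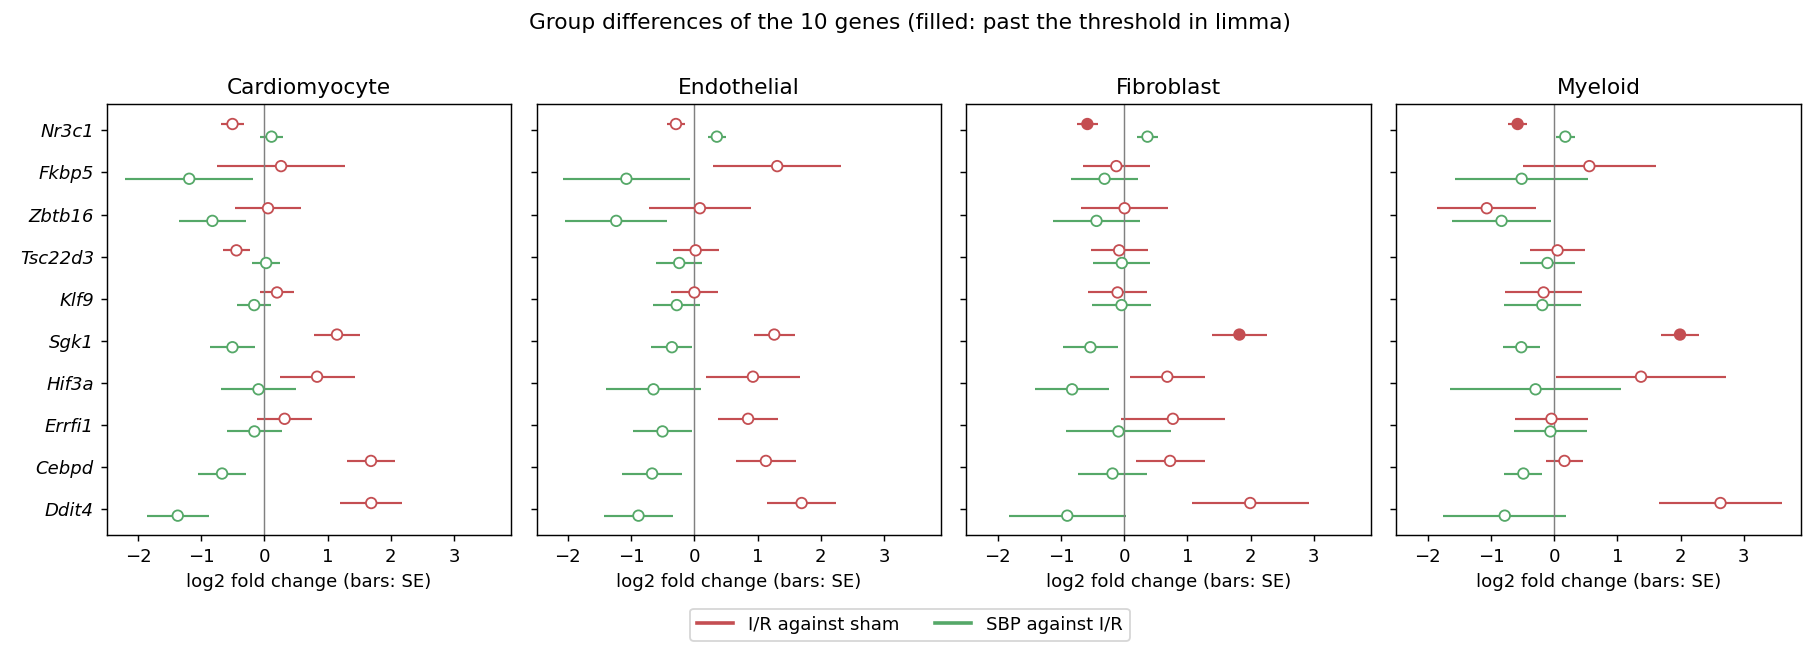
Log2 fold change (x axis, log2(CPM + 1) scale) of the 10 genes in each cell type for I/R against sham and SBP against I/R. Lines are ± 1 SE from limma and filled points passed the call. Filled points are those of Nr3c1 and Sgk1 in fibroblasts and myeloid cells for I/R against sham, and no point is filled for SBP against I/R.

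SBP was compared with I/R to ask whether pre-treatment altered these genes after the injury. None of the 10 genes was called in any type, and limma called 0 of all genes tested (0%) in each of the 4 types. At an unadjusted p under 0.05 limma gave 276 of 12902 genes tested in cardiomyocytes and 424 of 10731 in myeloid cells. It gave 466 of 13072 in fibroblasts and 620 of 12202 in endothelial cells. Genes that do not differ also meet such a limit. Zbtb16 in cardiomyocytes was at 1476, 1753 and 1683 CPM in I/R and at 1253, 819 and 768 CPM in SBP (log2 fold change −0.82, SE 0.53). In endothelial cells it was at 724, 1076 and 1254 CPM in I/R and 512, 486 and 300.3 CPM in SBP (−1.23, SE 0.81). All SBP mice lay below all I/R mice in both types, but the levels of the sham mice ran from 539 to 3102 CPM in cardiomyocytes and from 198 to 2457 CPM in endothelial cells.

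Ddit4 in cardiomyocytes (11.8, 4.67 and 6.83 CPM in SBP; log2 fold change −1.37, SE 0.49) and Sgk1 in myeloid cells (57.1, 65.9 and 36.9 CPM in SBP; −0.52, SE 0.30) also lay below I/R without overlap. Nr3c1 in fibroblasts lay above it, at 232, 278 and 287 CPM in SBP (0.37, SE 0.16). None of these passed, and limma's adjusted p was at least 0.964 for all 10 genes in all types. Groups without overlap numbered 2 of 10 in cardiomyocytes and 1 of 10 in each other type, against 5.57%, 9.38%, 8.3% and 9.1% of all genes. Fold changes were below 0 for 8 of 10 genes in cardiomyocytes and 9 of 10 in the other types, with medians of −0.33, −0.57, −0.25 and −0.39. Over all genes 50.0%, 49.0%, 49.3% and 50.5% were below 0, with medians from −0.00278 to 0.00572. The 10 genes are not independent of each other, since most moved together between mice, and I/R replicate 1 and SBP replicate 1 stood apart in them, as described below. Nr3c1 had the positive sign in every type, joined by Tsc22d3 (0.03) in cardiomyocytes. In Fkbp5, SBP stood at 78.7, 56.5 and 37.2 CPM in cardiomyocytes, 505, 302 and 249.8 in endothelial cells, 799.7, 616 and 652 in fibroblasts and 1006, 389 and 673 in myeloid cells, and in every type these overlapped I/R, whose replicate 1 was at 54.5, 227, 528 and 327 CPM.

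SBP against sham used the same sham mice as I/R against sham, so the comparisons are not independent. Limma called 12.9% of all genes in myeloid cells, 6.22% in fibroblasts, 2.21% in endothelial cells and 0.132% in cardiomyocytes. Among the 10 genes it called Sgk1 in myeloid cells, with 57.1, 65.9 and 36.9 CPM in SBP against 28.2, 16.8 and 12.3 CPM in sham (log2 fold change 1.47, SE 0.30, limma adjusted p = 0.00767; without sham replicate 2, 1.42 and limma adjusted p = 0.0331). Without sham replicate 2, Zbtb16 was called too, in myeloid cells (−2.74, limma adjusted p = 0.0425) and endothelial cells (−2.26, limma adjusted p = 0.0181). Of all genes, 8.13% and 0.623% were then called in these types. Sgk1 in fibroblasts (71.3, 38 and 30.5 CPM in SBP; 1.29, SE 0.43, limma adjusted p = 0.128) and endothelial cells (273, 137 and 139 CPM; 0.91, SE 0.32, limma adjusted p = 0.202) did not pass. Nr3c1 in myeloid cells was at 284, 313 and 344 CPM in SBP, below all sham mice (−0.40, SE 0.15, limma adjusted p = 0.0969).

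Within the types, the clusters differed in Sgk1 and Nr3c1 and also in which groups supplied them. Of the endothelial clusters that led by Btnl9 held the highest Sgk1, at 127 ± 31.3 CPM in the sham mice, 335 ± 116 in the I/R mice and 319 ± 176 in the SBP mice (SD, n = 3). The endothelial clusters marked by Npr3 and Reln stood at 60.1 ± 31.1 and 43.0 ± 13.9 CPM in sham, 98.1 ± 9.96 and 104 ± 41.7 in I/R, and 64.6 ± 18.1 and 39.1 ± 9.29 in SBP. The unnamed cluster led by Flt3 was higher in sham, at 185 ± 43.1 CPM over 3 mice and 32 UMIs. Clusters are described here without a test.

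Among myeloid cells, the cluster with Gpnmb and Arg1 among its leading genes held 30 sham nuclei, 2980 of I/R mice and 1635 of SBP mice. Its Sgk1 was at 95.1 ± 19.1 CPM in I/R and 77.4 ± 18.6 in SBP, and its Nr3c1 at 257 ± 19.7 and 279 ± 17.5 CPM. Cd163 is a marker of resident macrophages and is also on the list of induced genes read below. Its part in forming the cluster it marks was not tested. That Cd163 cluster held 1704, 1270 and 1057 nuclei. In it Sgk1 was at 18.7 ± 9.32 CPM in the sham mice, 41.1 ± 4.65 in the I/R mice and 20.6 ± 5.19 in the SBP mice, and Nr3c1 at 415 ± 55.6, 344 ± 95.5 and 372 ± 79.1 CPM. Fitted on the Cd163 cluster alone, an alternative chosen after seeing the data, neither I/R call was kept (Sgk1 1.22, limma adjusted p = 0.0896; Nr3c1 −0.27, limma adjusted p = 0.58), and Sgk1 in SBP against sham was at 0.25 (limma adjusted p = 0.814).

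Among fibroblasts, the cluster marked by Tnc and Postn held 11 sham nuclei, 989 in I/R and 711 in SBP. Its Sgk1 was at 112 ± 54.8 CPM in I/R and 103 ± 36.7 in SBP, and its Nr3c1 at 170 ± 11.8 and 208 ± 23.8 CPM. In the larger cluster, marked by Scara5, Sgk1 was at 18.3 ± 8.60 CPM in the sham mice, 52.6 ± 11.2 in the I/R mice and 28.4 ± 17.5 in the SBP mice, and Nr3c1 at 301 ± 63.3, 237 ± 43.8 and 287 ± 40.4 CPM. In that cluster alone the I/R call was lost for Sgk1 (log2 fold change 1.61, limma adjusted p = 0.0825) and for Nr3c1 (−0.32, limma adjusted p = 0.382).

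Hif3a in I/R differed between the myeloid clusters, at 141 ± 122 CPM in the Cd163 cluster and 9.64 ± 9.06 CPM in the Gpnmb cluster. Of its I/R UMIs, 405 came from the Cd163 cluster and 52 from the larger Gpnmb cluster. In the myeloid sums it was at 1.93 CPM in I/R replicate 1 against 66.1 and 113 CPM in the other I/R mice. Without I/R replicate 1, limma also called Hif3a for I/R against sham, in fibroblasts and in myeloid cells. With all mice Hif3a did not pass in these types (limma adjusted p = 0.526 and 0.535). The share of all genes called without I/R replicate 1 is not given here.

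**Figure D3:**
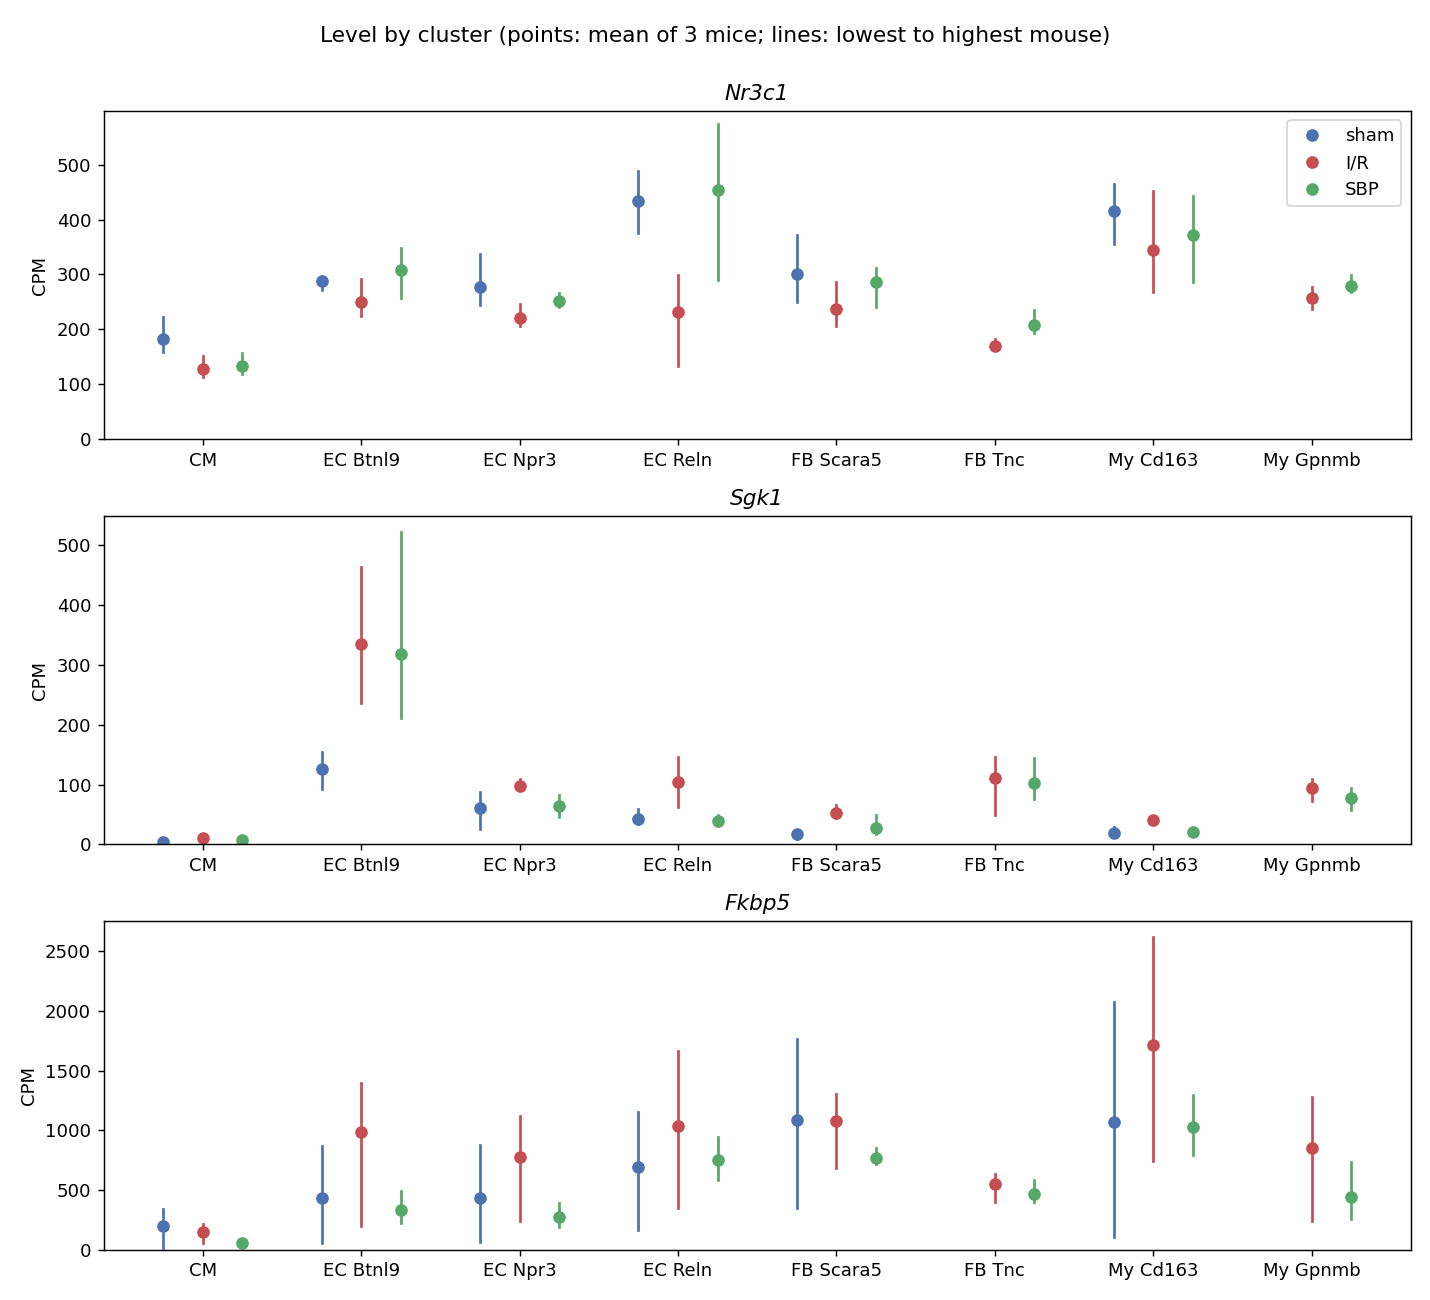
Level (y axis, CPM) of Nr3c1, Sgk1 and Fkbp5 in 8 clusters, named by cell type (CM cardiomyocytes, EC endothelial cells, FB fibroblasts, My myeloid cells) and 1 of their leading genes; points are means of 3 mice and lines run from the lowest to the highest mouse. The Tnc and Gpnmb clusters have no sham point (11 and 30 sham nuclei), and Sgk1 is highest of these 8 in the Btnl9 endothelial cluster.

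The markers of other cell types also moved with the injury in these sums. The summed level of the 6 cardiomyocyte markers was 5844 to 6457 CPM in sham myeloid cells, 1724 to 2697 in I/R and 1830 to 2392 in SBP. In fibroblasts it was 4640 to 5511, 1501 to 2252 and 1469 to 2237 CPM. The 6 fibroblast markers in myeloid cells ran the other way, at 279 to 412 CPM in sham, 680 to 971 in I/R and 549 to 630 in SBP. The 6 B cell markers in myeloid cells were at 661 to 716 CPM in sham, 51.0 to 151 in I/R and 176 to 415 in SBP. In fibroblasts the 10 myeloid markers were at 96.8 to 125, 172 to 353 and 118 to 190 CPM. No marker of these lists was at 0. Their part in the calls of Nr3c1 and Sgk1 was not tested. Sgk1 stood at 3.27 to 15.3 CPM in cardiomyocytes themselves.

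The targets varied widely between some mice of 1 group. Within sham, Fkbp5 in replicate 1 was 26.7 times its level in replicate 2 in cardiomyocytes, 13.4 times in endothelial cells, 5.07 times in fibroblasts and 18.8 times in myeloid cells. The same mice differed in Zbtb16 by 5.76, 12.4, 7.98 and 8.22 times. Between sham replicates 1 and 2 the median absolute log2 difference over the 10 genes was 1.17, 2.07, 1.93 and 1.83 in the 4 types, against 0.26, 0.24, 0.33 and 0.33 over all genes. Between sham replicates 1 and 3 it was 0.43, 0.48, 0.38 and 0.73, against 0.24, 0.27, 0.26 and 0.32. Between I/R replicates 2 and 3 it was 0.36, 0.19, 0.38 and 0.48, against 0.31, 0.31, 0.30 and 0.32. Between SBP replicates 2 and 3 it was 0.36, 0.20, 0.43 and 0.46, against 0.23, 0.22, 0.21 and 0.23. In endothelial cells the 10 genes were thus below all genes in these last pairs. Sham replicate 2 was the low mouse for nearly every target and was not low for Nr3c1, for which it was the highest sham mouse in cardiomyocytes (206 CPM), endothelial cells (312 CPM) and fibroblasts (378 CPM).

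The other groups had a mouse of their own that stood apart. I/R replicate 1 was the lowest I/R mouse for 6, 8, 9 and 8 of the 10 genes in cardiomyocytes, endothelial cells, fibroblasts and myeloid cells (33.0% to 35.2% of all genes). SBP replicate 1 was the highest SBP mouse for 8, 9, 9 and 8 of them (35.0% to 37.0% of all genes), and sham replicate 1 the highest sham mouse for 7, 7, 8 and 8 (31.9% to 35.7%). These mice were picked out after their values were seen, and these counts carry no test.

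**Figure D4:**
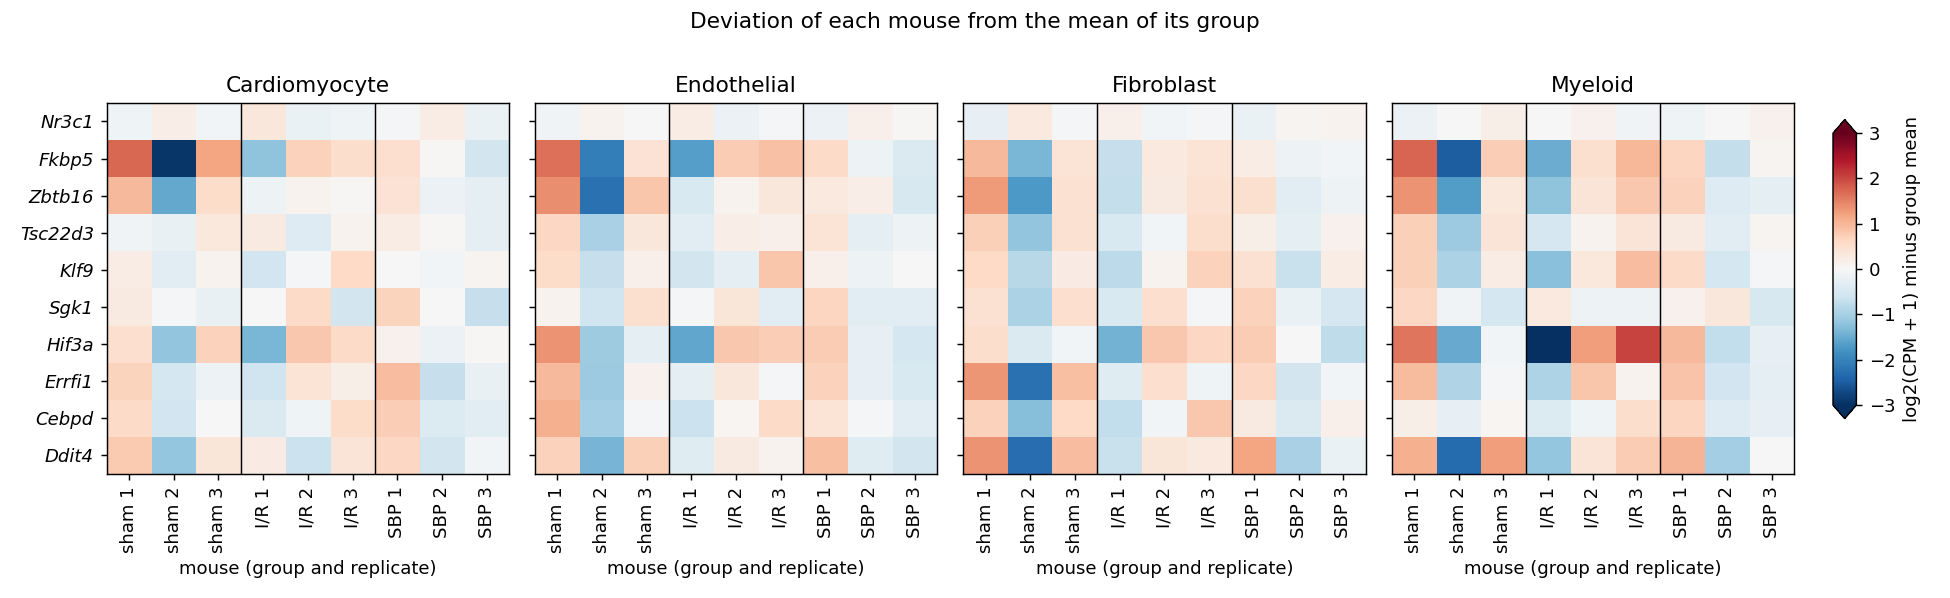
Deviation of each mouse from its group mean, on the log2(CPM + 1) scale (colour, blue below and red above the mean), for the 10 genes in 4 cell types. Sham replicate 2 and I/R replicate 1 are blue and sham replicate 1 and SBP replicate 1 red for most targets in every type, and the row of Nr3c1 stays pale.

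The joint variation was measured as the correlation of each gene with Fkbp5 over the 9 mice, after the mean of each group was removed. Reassigning mice within groups in all possible ways gave two-sided exact p-values, of which the smallest possible is 0.00463. Of the 36 relations (9 genes, 4 types), 25 had an exact permutation p of at most 0.05. These were 2, 7, 9 and 7 of the 9 genes in cardiomyocytes, endothelial cells, fibroblasts and myeloid cells, beside 6.36%, 6.4%, 9.92% and 6.64% of all genes tested. Adjusted over all genes of a type, no gene passed, and the lowest Benjamini-Hochberg adjusted exact permutation p was 0.724, 0.601, 0.344 and 0.555. By Spearman's rho the counts were 3, 6, 7 and 7. Leaving out 1 mouse gave 13 (without sham replicate 2) to 24 (without SBP replicate 3) of the 36. The shares of all genes above are for Pearson r over all 9 mice. None is given for rho or with 1 mouse left out, so those counts cannot be set against all genes.

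By the mean over the 4 types Zbtb16 had the highest r with Fkbp5. In endothelial cells Cebpd, Hif3a and Tsc22d3 were above it, and in myeloid cells Tsc22d3. The Pearson r of Zbtb16 with Fkbp5 was 0.95, 0.88, 0.99 and 0.98 in cardiomyocytes, endothelial cells, fibroblasts and myeloid cells (rho 0.90, 0.82, 0.90 and 0.95), with an exact permutation p of 0.00463 for each r. Without the 2 mice whose Fkbp5 was farthest from the median, sham replicate 2 and I/R replicate 1 in every type, r was 0.93, 0.80, 0.98 and 0.94. Without sham replicate 2 alone it was 0.68, 0.85, 0.97 and 0.97 (exact permutation p = 0.0139 for each, the smallest that the 72 arrangements then left allow). Of all genes, 0.101%, 0.893%, 0.0153% and 0.0280% had an r as high as Zbtb16 in the 4 types.

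Of the other targets all but Klf9 and Sgk1 had an exact permutation p of at most 0.05 in at least 3 types. Tsc22d3 had r of 0.93 in endothelial cells (exact permutation p = 0.0185), 0.96 in fibroblasts and 0.99 in myeloid cells (p = 0.00463 for both, rho 0.95 and 1.00), but 0.21 in cardiomyocytes (p = 0.657). Its cardiomyocyte levels in sham were 131, 119.9 and 176 CPM, so that the low sham replicate 2 of the other types (80.8, 85 and 113 CPM) was not as low there. Cebpd had r of 0.71, 0.95, 0.93 and 0.66 in cardiomyocytes, endothelial cells, fibroblasts and myeloid cells (exact permutation p from 0.00463 to 0.0417). Klf9 had 0.65, 0.83, 0.86 and 0.92, with exact permutation p = 0.00463 in fibroblasts and myeloid cells and over 0.05 in the other types (0.0926 and 0.0648). Errfi1 (0.64, 0.87, 0.92 and 0.85), Hif3a (0.86, 0.94, 0.65 and 0.84) and Ddit4 (0.68, 0.84, 0.92 and 0.96) reached an exact permutation p of at most 0.05 in every type but cardiomyocytes (0.0556, 0.0556 and 0.171). Without the same 2 mice, r of these genes in fibroblasts fell to between 0.49 (Hif3a) and 0.84 (Tsc22d3). When sham replicate 2 alone was left out, r of these 6 genes ran from −0.33 (Tsc22d3) to 0.85 (Hif3a) in cardiomyocytes, 0.61 (Ddit4) to 0.99 (Hif3a) in endothelial cells, 0.65 (Errfi1) to 0.90 (Hif3a) in fibroblasts and 0.79 (Cebpd) to 0.99 (Tsc22d3) in myeloid cells.

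Sgk1 had the lowest r with Fkbp5 among the targets in endothelial and myeloid cells, and not in cardiomyocytes (Tsc22d3) or fibroblasts (Hif3a). Its r was 0.23 in cardiomyocytes, 0.54 in endothelial cells, 0.83 in fibroblasts (exact permutation p = 0.037, rho 0.63 with p = 0.0926) and 0.03 in myeloid cells. These were 0.44, 0.19, 0.60 and −0.11 without sham replicate 2, and no type passed (exact permutation p = 0.208 in fibroblasts). The r of Nr3c1 with Fkbp5 was negative in all 4 types, at −0.64 in cardiomyocytes (exact permutation p = 0.0602), −0.80 in endothelial cells (p = 0.0185), −0.92 in fibroblasts (p = 0.0185) and −0.23 in myeloid cells (p = 0.718). Of all genes, 6.64%, 1.89%, 0.635% and 35.0% had an r as low. Without the 2 farthest mice these r were −0.16, −0.67, −0.83 and −0.48, so in cardiomyocytes the relation rested on those mice. They were −0.60, −0.87, −0.84 and −0.36 when sham replicate 2 alone was left out (exact permutation p = 0.25, 0.0556, 0.0556 and 0.375).

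**Figure D5:**
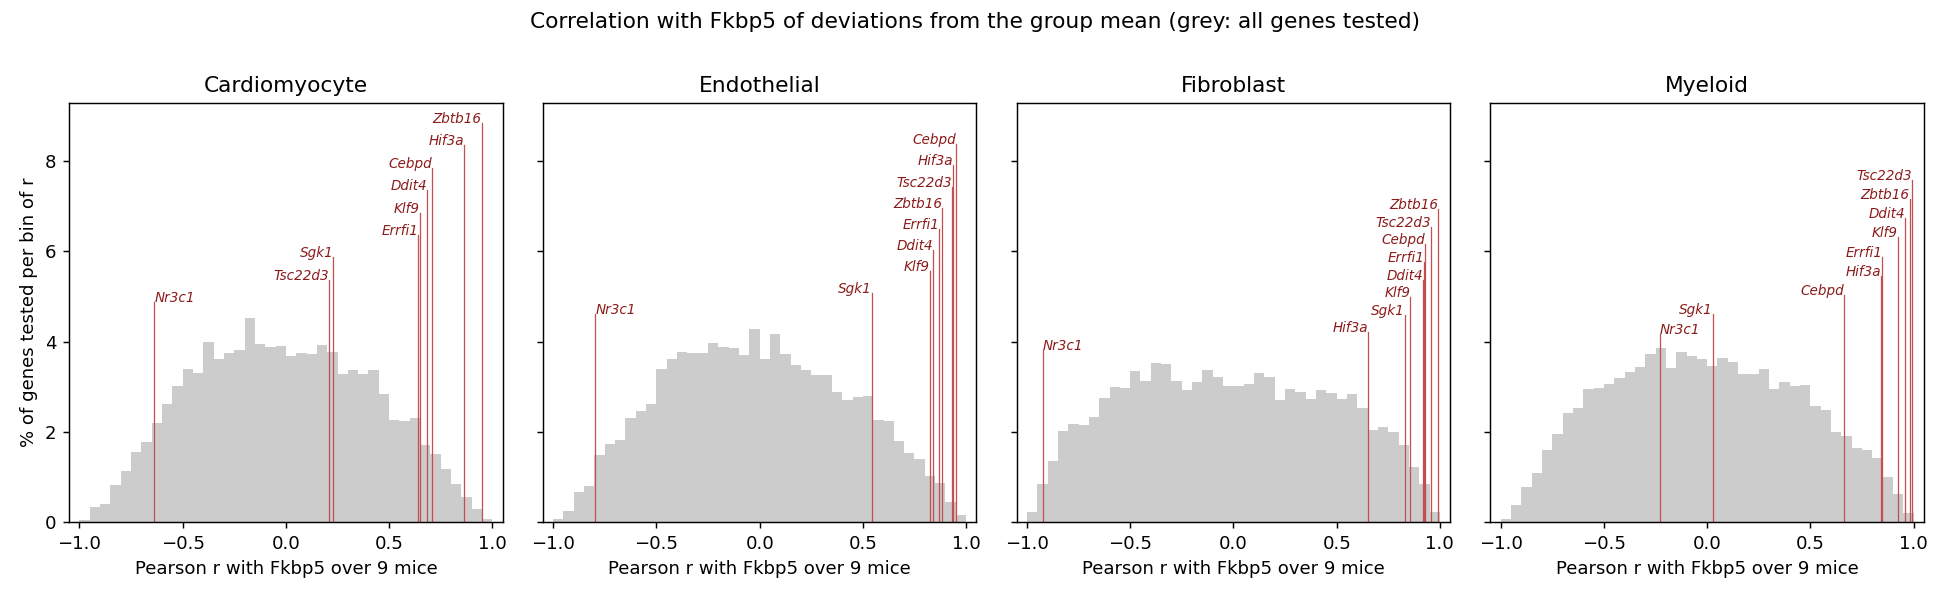
Pearson r with Fkbp5 over 9 mice (x axis, group means removed) of the 9 other genes (red lines, heights only separate the labels) on the distribution over all genes tested (grey, percent of genes per bin, y axis) in 4 cell types. Zbtb16 lies at 0.88 to 0.99, Nr3c1 is below 0 in every panel, and Sgk1 is at 0.03 in myeloid cells.

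Each gene was also followed from one cell type to another over the same 9 mice. Fkbp5 had r of 0.94 to 0.99 over the 6 pairs of types (exact permutation p from 0.00463 to 0.0278), where the median over all genes was 0.31 to 0.44. Zbtb16 (0.86 to 0.97), Klf9 (0.86 to 0.97), Errfi1 (0.68 to 0.95) and Cebpd (0.70 to 0.94) also had an exact permutation p of at most 0.05 in all 6 pairs, while Ddit4 (0.77 to 0.97) had it in 4 and Hif3a (0.77 to 0.95) in 3. The share of all genes with such a p is not given here. Of all genes, 0.106% to 0.739% had an r as high as Fkbp5. Between cardiomyocytes and fibroblasts 22.3% were as high as Errfi1 and 14.1% as Hif3a. As high as Cebpd were 18.4% between endothelial and myeloid cells, and as high as Ddit4 12.1% between cardiomyocytes and endothelial cells. The lowest r over the pairs was 0.79 for Fkbp5, 0.63 for Zbtb16, 0.82 for Klf9, 0.56 for Errfi1, 0.69 for Cebpd, 0.74 for Ddit4 and 0.46 for Hif3a when sham replicate 2 and I/R replicate 1 were left out. Tsc22d3 had 0.92 to 0.99 among endothelial cells, fibroblasts and myeloid cells and 0.16 to 0.24 between cardiomyocytes and these. In every type sham replicate 1 was the highest and sham replicate 2 the lowest sham mouse for Fkbp5, I/R replicate 1 the lowest I/R mouse and SBP replicate 1 the highest SBP mouse. The order of the other mice differed between types, with SBP replicate 3 lowest in cardiomyocytes (37.2 CPM) and SBP replicate 2 in myeloid cells (389 CPM). Nr3c1 (−0.14 to 0.82) had an exact permutation p of at most 0.05 in 2 of the 6 pairs and Sgk1 (−0.01 to 0.90) in 1. Neither had an order common to all 4 types, and the lowest r of both were with myeloid cells.

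The types of a mouse came from 1 library and its free RNA, whose part in the common order was not tested. The ratio of Fkbp5 to Zbtb16 UMIs in sham replicate 1 was 0.113, 0.364, 0.453 and 1.15 in cardiomyocytes, endothelial cells, fibroblasts and myeloid cells, and in sham replicate 2 it was 0.0243, 0.337, 0.713 and 0.504. Over the 9 mice it ran from 0.0243 to 0.116, 0.232 to 1.12, 0.453 to 0.713 and 0.504 to 4.40 in these types. Depth and composition were set against Fkbp5 in the same way. Over log2 UMIs and log2 nuclei of the sum, log2 median UMIs per nucleus and the percent of myeloid nuclei, the 16 values of r ran from −0.65 to 0.12, with exact permutation p of at least 0.0833. With sham replicate 2 and I/R replicate 1 left out they ran from −0.59 to 0.69, and r with log2 UMIs in endothelial cells turned from −0.36 to 0.69.

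The genes most like Fkbp5 were sought among the 9984 others tested in all 4 types, by the mean r over the types. Zbtb16 came first (0.952), followed by Bcl2l1, which encodes the survival protein BCL-XL (0.919), Jade2 (0.892), the focal adhesion gene Tns1 (0.888) and the interferon regulatory factor Irf2 (0.879). Among the genes followed here, Ddit4 ranked 15, Hif3a 23, Errfi1 24, Klf9 29, Cebpd 30, Tsc22d3 50 and Sgk1 1127. Nr3c1 ranked 9863, the 122nd from the lowest (mean r −0.65). Without sham replicate 2, an alternative chosen after seeing the data, Zbtb16 ranked 15, Bcl2l1 32, Jade2 3, Tns1 24 and Irf2 109, and of the genes followed here Hif3a ranked 5, Klf9 73, Cebpd 82, Errfi1 184, Tsc22d3 587, Ddit4 771, Sgk1 2428 and Nr3c1 9749. The order thus depended on that mouse.

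The wider pathway was read from lists of other genes. Of 17 tested genes of the receptor's partners, coregulators and steroid metabolism, I/R against sham called none in cardiomyocytes or endothelial cells, 2 lower in fibroblasts, and 1 higher and 4 lower in myeloid cells. These counts stand beside 11.7% of all genes called in fibroblasts and 17.5% in myeloid cells, and 2 of 17 is near the first. Nr3c2, the mineralocorticoid receptor, which also binds glucocorticoids, fell in myeloid cells from 226 ± 10.8 to 68.4 ± 8.55 CPM, a log2 fold change of −1.72 (SE 0.17, limma adjusted p = 6.9e-05). Hsd11b1, which regenerates active glucocorticoid, fell in fibroblasts from 210.0 ± 40.8 to 96.4 ± 44.1 CPM (−1.21, SE 0.30, limma adjusted p = 0.0279). The immunophilin Fkbp4, which favours nuclear entry of the receptor, fell in fibroblasts (26.9 ± 4.29 to 13.8 ± 3.96 CPM, limma adjusted p = 0.0205) and myeloid cells (31.2 ± 3.92 to 14.1 ± 6.71 CPM, limma adjusted p = 0.0252). The chaperone Hsp90aa1 rose in myeloid cells from 22.6 ± 3.37 to 43.7 ± 10.8 CPM (limma adjusted p = 0.0155). When sham replicate 2 was left out, Nr3c2 kept its call (limma adjusted p = 0.000767), while Hsd11b1 (0.0547), Fkbp4 (0.0653 in fibroblasts and 0.0785 in myeloid cells) and Hsp90aa1 (0.0582) lost theirs. The list then had 1 gene called lower in fibroblasts and 3 lower in myeloid cells, beside 9.79% and 11.9% of all genes called. Nr3c2 stood higher in cardiomyocytes, at 555 to 812 CPM in sham and 360 to 603 in I/R, and the cardiomyocyte markers in myeloid sums went from 5844 to 6457 CPM in sham to 1724 to 2697 in I/R. Their part in the fall of Nr3c2 was not tested. The median log2 fold change of this list was −0.05, 0.07, −0.17 and 0.01 in cardiomyocytes, endothelial cells, fibroblasts and myeloid cells.

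Of 19 or 20 tested genes known to be induced by glucocorticoids, I/R against sham called 5 higher in myeloid cells, 3 in fibroblasts and 2 each in endothelial cells and cardiomyocytes, and none lower. Of all genes limma called 17.5%, 11.7%, 3.24% and 0.806% in these types, in either direction, so the fibroblast count was near that share. The list's median log2 fold change was 0.89 in cardiomyocytes, 0.86 in endothelial cells, 0.72 among fibroblasts and 0.69 among myeloid cells. The metallothionein gene Mt2 rose in endothelial cells from 6.34 ± 3.98 to 114 ± 92.5 CPM, a log2 fold change of 3.70 (SE 0.76, limma adjusted p = 0.0338) and in myeloid cells from 5.87 ± 5.20 to 103 ± 89.1 CPM (limma adjusted p = 0.0276). Pdk4, a kinase that turns cells from glucose to fatty acid use, rose in cardiomyocytes from 151 ± 113 to 1420.0 ± 427 CPM (limma adjusted p = 0.0254). Angptl4, an inhibitor of lipoprotein lipase, rose in fibroblasts from 4.80 ± 5.46 to 55.1 ± 33.7 CPM (limma adjusted p = 0.0125). Lcn2, an iron-binding acute phase protein, was called in fibroblasts (limma adjusted p = 0.0482), at 1.36, 0.368 and 0.699 CPM in sham and 2.88, 82.3 and 18.9 CPM in I/R. I/R replicate 2 was the highest I/R mouse for Lcn2 in the other types too (34.8, 134 and 111 CPM in cardiomyocytes, endothelial and myeloid cells), and the call was lost without each of 7 of the 9 mice (limma adjusted p up to 0.128). Leaving out sham replicate 2 ended the calls of Mt2 in endothelial and myeloid cells (limma adjusted p = 0.1 and 0.0784) and kept those of Pdk4 (0.0201) and Angptl4 (0.00367). With that mouse left out the list had 3 genes called higher in myeloid cells, 1 higher and 1 lower in fibroblasts, 0 in endothelial cells and 1 higher in cardiomyocytes. Of all genes, 11.9%, 9.79%, 0.68% and 0.178% were then called in these types, so the myeloid and fibroblast counts were near the shares there. Pdk4 was lost without 4 other mice and Angptl4 in fibroblasts without 2, I/R replicates 2 and 3. With the replicate number as a block the calls of Pdk4 (limma adjusted p = 0.066) and of Lcn2 (limma adjusted p = 0.105) were lost. Those of Mt2 in endothelial and myeloid cells were lost too (limma adjusted p = 0.0919 and 0.0583), while Angptl4 in fibroblasts was kept (limma adjusted p = 0.0259). These genes are known to respond to other signals as well, whose part was not tested. Of this list, r with Fkbp5 is given here for Pdk4 and Per1 alone, and they do not stand for the others. Pdk4 had r with Fkbp5 of −0.41 to 0.19 over mice. Per1, a clock gene that is also a receptor target, was picked outside the rule for named genes. Its r was 0.68, 0.94, 0.91 and 0.92 in cardiomyocytes, endothelial cells, fibroblasts and myeloid cells (exact permutation p from 0.00463 to 0.0324). In the last 3 types 2.52%, 4.00% and 3.24% of all genes had an r over 0.8. The r of Per1 was 0.46, 0.81, 0.74 and 0.78 without sham replicate 2 and I/R replicate 1, and in cardiomyocytes rho was 0.63 (exact permutation p = 0.102).

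Clock genes were listed because glucocorticoids follow a daily rhythm. Of 13 tested (12 in myeloid cells), I/R against sham called 2 higher and 5 lower in cardiomyocytes, 2 and 4 in endothelial cells, 3 and 8 in fibroblasts and 1 and 6 in myeloid cells, against 0.806%, 3.24%, 11.7% and 17.5% of all genes. Leaving out sham replicate 2 gave 1 and 1, 2 and 2, 3 and 7, and 0 and 6, against 0.178%, 0.68%, 9.79% and 11.9% of all genes. Arntl, the positive limb of the clock, rose in fibroblasts from 11.4 ± 2.49 to 153 ± 62.3 CPM, a log2 fold change of 3.56 (SE 0.33, limma adjusted p = 0.000137), and its partner gene Npas2 from 25.4 ± 4.34 to 244 ± 149 CPM (limma adjusted p = 0.0023). The repressor Nr1d1 fell in myeloid cells (−2.39, SE 0.43, limma adjusted p = 0.00275), and the output gene Dbp in all 4 types (−3.34 to −3.87). Of these calls that of Dbp in cardiomyocytes was lost without sham replicate 2 (limma adjusted p = 0.0522) and without I/R replicate 2 (limma adjusted p = 0.0597), and the others were kept without each mouse. Nr1d1 was also called in fibroblasts (−3.36, limma adjusted p = 0.0428), a call lost without 7 of the 9 mice. Arntl was called in myeloid cells too (1.69, limma adjusted p = 0.0224), lost without sham replicate 2 (limma adjusted p = 0.0688) or I/R replicate 3, and in cardiomyocytes (3.19) and endothelial cells (3.14), kept without each mouse. The groups did not overlap for Arntl and Dbp in any type, while those of Npas2 overlapped in endothelial and myeloid cells and those of Nr1d1 in endothelial cells. Over mice with group means removed, Dbp had r with Fkbp5 of −0.39, −0.10, −0.21 and −0.50 (exact permutation p from 0.199 to 0.833), and −0.18, −0.15, −0.39 and −0.25 without the same 2 mice. Their part in the levels of the 10 genes was not tested.

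Of 7 immediate early genes tested in myeloid cells limma called 1, Junb (34.5 ± 4.80 to 155 ± 99.8 CPM, limma adjusted p = 0.00837), beside 17.5% of all genes, and none in the other types. The glucose transporter Slc2a1 was the 1 called of 8 hypoxia genes in endothelial cells (3.15 ± 0.871 to 9.08 ± 0.966 CPM, limma adjusted p = 0.0302, lost without 5 of the 9 mice) and of 6 in myeloid cells (limma adjusted p = 0.00766), beside 3.24% and 17.5% of all genes. The endothelial call of Slc2a1 was also lost with the replicate number as a block (limma adjusted p = 0.0554). No gene of any list was called in SBP against I/R. In SBP against sham limma called 2 genes of the receptor list lower in myeloid cells, induced genes higher in fibroblasts (1) and myeloid cells (3), and clock genes in endothelial cells (1 higher), fibroblasts (3 higher, 1 lower) and myeloid cells (2 higher, 6 lower). It also called immediate early genes higher in endothelial cells (1) and myeloid cells (2), and 1 hypoxia gene higher in myeloid cells. Of all genes it called 12.9% in myeloid cells, 6.22% in fibroblasts and 2.21% in endothelial cells, and the counts of the receptor list (2 of 17) and of the induced genes (3 of 19) in myeloid cells were near the share there. With sham replicate 2 left out these myeloid counts were 1 gene of the receptor list lower, 3 induced genes higher, 1 clock gene higher and 3 lower, and 1 immediate early gene higher, beside 8.13% of all genes, and no gene of these lists was called in endothelial cells.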

How the data were processed

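Single-nucleus libraries (10x Chromium) from 9 mouse hearts were analysed. The authors' methods give read filtering by fastp, UMI counting on mm10 by CellRanger and normalization in Seurat; the submitters' processing notes name Cell Ranger 4.0, STAR, Seurat 3.2.0 and GRCm38. The deposited values are natural log values, ln(1 + 10000 × UMIs / total UMIs of the nucleus). UMIs were recovered from them (at least 99.9994% of values within 0.1 of a whole number per mouse).

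Nuclei were clustered in scanpy 1.11.5 (2000 variable genes, 30 principal components, Leiden resolution 0.3), and the 17 clusters were named if 3 or more of a type's markers were found in over 10% of nuclei; 380 nuclei led by Flt3 stayed unnamed. Cell types were rebuilt here, so the names can differ from those of the study. The alternative rule by marker scores gave the same type for 70.5% of nuclei. Scrublet marked 141 nuclei (0.287%), which were left out; a caller that marks so few was taken not to have worked, and removing the 2168 highest-scoring nuclei (4.41%) was an alternative. Libraries shared 290 barcodes. The tables used here hold fewer nuclei than the study states.

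UMIs were summed per mouse and type (at least 20 nuclei), scaled by TMM factors and tested as log2(CPM + 1) with limma 3.58.1 in R 4.3.3 (trend, robust, 1 fit over 9 mice per type). This scale understates changes of low genes. In 3 mice genes had to reach the CPM that 10 UMIs make in the median library, with 15 UMIs in all. The deposited unit is a natural log and not a count, so the count test planned for raw counts was not used. Sums held 544530 (myeloid, sham 1) to 10153762 UMIs (cardiomyocytes, sham 3). The 10 genes and the lists were chosen with earlier results of these data known, so no p is adjusted over them alone, including the Benjamini-Hochberg step planned over the 36 correlations and over the 10 tests of highest level. Named genes are the 10, at most 4 called genes per list by largest fold change, and the 5 genes most like Fkbp5. Per1 was named outside this rule. The script was tested on simulated data. Alternatives changed the scaling, filter, pseudocount (0.5), sums, cell type rule, clusters, doublets, samples, replicate block and each mouse left out.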

Additional observations from a re-analysis of the deposited data

Results flagged for a closer look

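A difference of the I/R effect between cell types of the same mice passed for 2 of the 10 genes. Over all genes, limma called 4.82% between cardiomyocytes and myeloid cells and 6.94% between fibroblasts and myeloid cells. For Cebpd, the effect in cardiomyocytes was 1.52 log2 units above that in myeloid cells (limma adjusted p = 0.0115), with log2 fold changes of 1.69 and 0.16 in these types. Neither fold change passed on its own. For Zbtb16, the effect in fibroblasts was 1.07 log2 units above that in myeloid cells (limma adjusted p = 0.0437), with log2 fold changes of 0.01 and −1.07. Both differences were lost when nuclei were typed by marker scores, and the difference for Zbtb16 was lost without each of 8 of the 9 mice, the exception being I/R replicate 3. Their causes were not tested.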

How the results depend on the processing

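Of the 10 genes, I/R against sham called 0 in cardiomyocytes (1, Ddit4, with a replicate block; 0 to 1 with 1 mouse left out) and 0 in endothelial cells (1, Sgk1, as a mean over nuclei; 0 to 1). In fibroblasts it called 2, against 1 (Sgk1) with total UMIs, a mean over nuclei, the highest-scoring doublets removed or only the 6 mice compared, 0 in the largest cluster, 0 with the replicate block, and 0 to 3 with 1 mouse left out. In myeloid cells it called 2, against 1 (Sgk1) with marker scores, 0 in the Cd163 cluster (an alternative chosen after seeing the data) and 1 to 3 with 1 mouse left out. Hif3a was added in both types without I/R replicate 1. SBP against I/R called 0 in every setting run. SBP against sham called 0 in endothelial cells (0 to 1) and 1 in myeloid cells (0 in the Cd163 cluster; 1 to 2). Differences between types numbered 1 for cardiomyocytes minus myeloid cells and 1 for fibroblasts minus myeloid cells (0 with marker scores for both; 0 to 1 for the second) and 0 for endothelial minus myeloid cells (0 to 1). Correlations with Fkbp5 at an exact permutation p of at most 0.05 numbered 25, and 13 to 24 with 1 mouse left out, where no share of all genes is given. The causes of these shifts were not tested. The other 278 counts stayed within 1.5 times the main count, and no called fold change of the 10 genes changed sign. Of their 120 fold changes, 51 changed sign under some alternative, 50 of them with 1 mouse left out and 20 without sham replicate 2. Among those printed for I/R against sham, leaving out 1 mouse gave ranges of −1.19 to 1.13 (Fkbp5, cardiomyocytes), −0.81 to 0.36 (Fkbp5, fibroblasts; 0.032 as a mean over nuclei, 0.24 in the largest cluster), −0.68 to 1.43 (Fkbp5, myeloid cells), −0.71 to 0.55, −1.03 to 0.79 and −0.86 to 0.64 (Zbtb16 in cardiomyocytes, endothelial cells and fibroblasts, the last −0.30 with marker scores) and −0.10 to 0.36 (Cebpd, myeloid cells). For SBP against I/R, Tsc22d3 in cardiomyocytes was at −0.029 with total UMIs, −0.087 as a mean over nuclei and −0.16 to 0.17 with 1 mouse left out. Of 25 calls of named list genes for I/R against sham, 11 were kept with each mouse left out, 11 were lost without sham replicate 2 and 5 with the replicate block (for these genes, alternatives chosen after seeing the data). The largest myeloid cluster held 30 sham nuclei and gave no I/R against sham value. The correlation of deviations between mice with the same replicate number was over 0.1 in 11 of 36 pairs (r from −0.32 to 0.30), 8 of them among the 12 pairs of replicate 3 (0.03 to 0.30). Since not every pair was over 0.1, the numbers were not taken as pairing the mice; the replicate block changed the counts given above. Depth limits the low genes most: Sgk1 had 409 UMIs and Cebpd 540 in the cardiomyocytes of all mice.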

Other observations

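T cells had too few UMIs for the tests of the report (30 to 205 nuclei per mouse), but their Fkbp5 levels followed the mouse in sham, at 1061 CPM in replicate 1, 145 in replicate 2 and 344 in replicate 3. In the I/R mice they were at 283, 654 and 713 CPM and in the SBP mice at 519, 249 and 422 CPM. Sham replicate 2 and I/R replicate 1, the low mice of their groups in the main cell types, were thus the low mice in T cells too. Zbtb16 in T cells was at 831, 109 and 688 CPM in sham, 297, 572 and 315 CPM in I/R and 247, 243 and 400.4 CPM in SBP.

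In B cells Fkbp5 was at 769, 34.3 and 335 CPM and Zbtb16 at 1361, 160.1 and 682 CPM in sham. In the SBP mice B cell Fkbp5 was at 54.5, 291 and 158 CPM, so SBP replicate 1, the highest SBP mouse in the main cell types, was the lowest there (1 UMI), and in I/R replicate 1 it was at 146 CPM. In smooth muscle cells with pericytes, Fkbp5 was at 235 CPM in sham replicate 2, 581 in sham replicate 3, 1211 in I/R replicate 3 and 583 in SBP replicate 1, the mice with at least 20 such nuclei. Nr3c1 in T cells was at 424, 382 and 274 CPM in sham and 372, 306 and 382 CPM in I/R, which overlapped, unlike in fibroblasts and myeloid cells. In the SBP mice it was at 495, 516 and 485 CPM, above every sham and I/R mouse. These values rest on few UMIs (16 for Fkbp5 in T cells of sham replicate 2) and carry no test.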
